A study of Mus musculus with 1617 samples.

Results

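Macrophages of the brain of E12.5 mouse embryos were split by their level of Mki67, the gene of the nuclear protein Ki-67 that is present in cycling cells and absent from resting ones. Of the whole-brain cells of that age, 62 (42.5%) held Mki67 at 1 TPM or more and are called Mki67-positive, and 63 (43.2%) were listed at exactly 0 TPM and are called Mki67-zero. The other 21 cells (14.4%) lay between 0.14 and 0.82 TPM and entered neither group. TPM scales each gene by its length and each cell to the same total, so it keeps no record of how many reads were behind a value.

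The study profiled 1617 single brain macrophages, sorted as CD45+F4/80+CD11b+Ly6C- and captured on a Fluidigm C1 chip, with a Nextera XT library for each cell. Both groups share age, tissue, sort and protocol, and the labels give no strain, animal, litter or treatment for them. Each group therefore counts as 1 sample, cells are not replicates, and no test, p-value or standard error was made. The same split was described at E16.5, where 28 whole-brain cells were Mki67-positive, 65 were Mki67-zero and 33 lay between; those cells took no part in choosing the E12.5 groups.

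Macrophages enter the mouse brain early in gestation from the yolk sac and then multiply in place, so dividing cells are a regular part of the embryonic population. A cycling cell first loads helicases onto its DNA, then copies it, and then builds a spindle and divides, and different genes serve each step. Many genes of the last step share promoter elements, the CCAAT box and the cell cycle homology region (CHR), while many genes of the first step carry E2F sites.

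Mki67 lies on the minus strand of chromosome 7 (GRCm38, 135689784 to 135716361). The positive cells held between 1.13 and 503 TPM with a median of 50.8 TPM. The 3 cells just inside the limit held 1.13, 1.17 and 1.29 TPM, and the 3 just outside held 0.82, 0.58 and 0.54 TPM. Mki67 chose the cells, so its levels describe the choice only. Among the positive cells 23 held 100 TPM or more and 39 held less.

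The promoters of 4 genes, Mki67 itself and genes with large ratios, are shown. They were picked because the 250 bases before their starts carry both CHR and CCAAT elements. Each is the run of 120 bases before the RefSeq transcript start (GRCm38.p6), 5′ to 3′ on the gene's own strand, with CHR letters (TTTGAA or TTCGAA) and CCAAT letters in capitals on either strand. The runs lie at chr7:135716380-135716499 (minus) for Mki67, chr11:99024190-99024309 (minus) for Top2a, chr10:69352913-69353032 (minus) for Cdk1 and chr2:164769809-164769928 (plus) for Ube2c. The printed Mki67 run holds CHR letters but no CCAAT letters, which lie farther upstream in its 250 bases.
Mki67: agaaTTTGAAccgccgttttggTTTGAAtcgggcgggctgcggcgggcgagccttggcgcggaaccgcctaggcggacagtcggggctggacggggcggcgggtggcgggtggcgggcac
Top2a: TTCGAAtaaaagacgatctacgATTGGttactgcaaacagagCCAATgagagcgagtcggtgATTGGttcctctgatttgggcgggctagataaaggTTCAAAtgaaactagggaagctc
Cdk1: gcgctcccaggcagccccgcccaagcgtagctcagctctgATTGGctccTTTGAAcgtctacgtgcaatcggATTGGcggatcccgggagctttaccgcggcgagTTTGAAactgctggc
Ube2c: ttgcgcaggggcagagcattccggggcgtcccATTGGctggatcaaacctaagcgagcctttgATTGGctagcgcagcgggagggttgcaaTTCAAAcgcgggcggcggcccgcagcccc

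In the 250 bases before each start, both strands searched, 17.1% of all 32851 RefSeq promoters held CHR letters, 33.8% held CCAAT and 6.02% held both. Of 57 promoters of chromosome, kinetochore and spindle genes 40.4% held CHR letters, 63.2% CCAAT and 31.6% both. Of 17 promoters of mitotic entry genes 23.5% held CHR letters, 82.4% CCAAT and 23.5% both. Replication licensing promoters, 23 in number, had similar shares: 26.1% held CHR letters, 78.3% CCAAT and 26.1% both. For 33 DNA synthesis promoters the shares were 12.1%, 42.4% and 6.06%. E2F letters (TTTCCCGC, TTTGGCGC, TTTCGCGC or TTTGCCGC) stood in 34.8% of 23 promoters of replication licensing genes, in 7.02% of the spindle promoters and in 1.86% of all promoters. They also stood in 15.2% of DNA synthesis, 11.8% of mitotic entry and 0% of mitotic exit promoters. CHR and CCAAT letters thus did not separate licensing from mitotic entry genes. These letters describe the sequence and say nothing of what bound there. The lists were chosen from known functions, and the promoters of the genes named below that are not printed were not all of this kind: Ndc80 and Nusap1 held no CHR or CCAAT letters in that window.

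As a whole, both groups expressed the genes that define resident macrophages, but the label does not hold for every cell. The summed TPM of 12 such genes reached 100 in 60 of 62 positive and 58 of 63 zero cells. Some cells of each group also held high levels of neutrophil genes, given further below. Csf1r was at 0 in 1 positive cell and in 1 zero cell. C1qb, a complement chain made by resident macrophages, had a median of 2662 TPM in positive and 2741 TPM in zero cells, and was seen at 1 TPM or more in 60 of 62 and 61 of 63 cells. Csf1r, the receptor that keeps macrophages alive, had medians of 445 and 509 TPM. Of 12 resident macrophage genes none was 1.5-fold higher and 1, Cd68, was lower. The 4 measured sort antigens, Ptprc (CD45), Emr1 (F4/80) and Itgam (CD11b) among them, all lay within 1.5-fold.

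The groups also differed in how many genes were seen per cell, a value that touches every count below. The median positive cell had 5094 genes at or above 1 TPM (1761 to 6714) and the median zero cell 4418 (1250 to 6021). Markers of other myeloid cells moved with the split as well. The summed TPM of progenitor, monocyte, neutrophil and mast cell markers reached 100 in 37 of 62 positive cells (59.7%) and in 27 of 63 zero cells (42.9%). Xist, seen in female cells, was found in 22 of 62 positive and 13 of 63 zero cells, and no embryo is named for either. The part of these differences in the results was not tested.

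Outside Mki67, 10943 genes were measured, which means that the mean of 1 or both groups reached 5 TPM. A gene is called higher or lower where the ratio of its 2 group means, each raised by 1 TPM, passed 1.5-fold; this is a size, not a test. By that rule 3790 genes (34.6%) were higher in Mki67-positive cells and 2474 (22.6%) were lower. The median log2 ratio of all measured genes was 0.18, so a list near that value does not stand apart. Means over cells can rest on 1 cell: among genes outside the cell cycle lists, 31.1% of the higher and 44.3% of the lower ones had over 50% of their total in a single cell. When the difference of mean log2(TPM + 1) was taken in place of the ratio of means, 2917 genes were higher and 291 lower; that scale also rises with the number of cells in which a gene is seen. Without the highest cell of each group, gene by gene, 1494 were lower.

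Cell cycle genes were higher together. Of 150 such genes in 5 lists all but 2 were measured, 81.8% of them were higher and 1 was lower, with a median log2 ratio of 2.07. The median positive cell held 74.5 of the 150 genes at or above 1 TPM (quartiles 43.5 and 93.8), and the median zero cell 27 (quartiles 21.5 and 43.5). The groups overlapped: 3 of the 63 zero cells held as many cell cycle genes as the median positive cell. With cells weighed equally within 3 classes of genes per cell the median was 1.70, with 76.2% higher and 8 genes lower. Among cells without the other myeloid markers, 25 positive and 36 zero, it was 1.97.

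**Figure D1:**
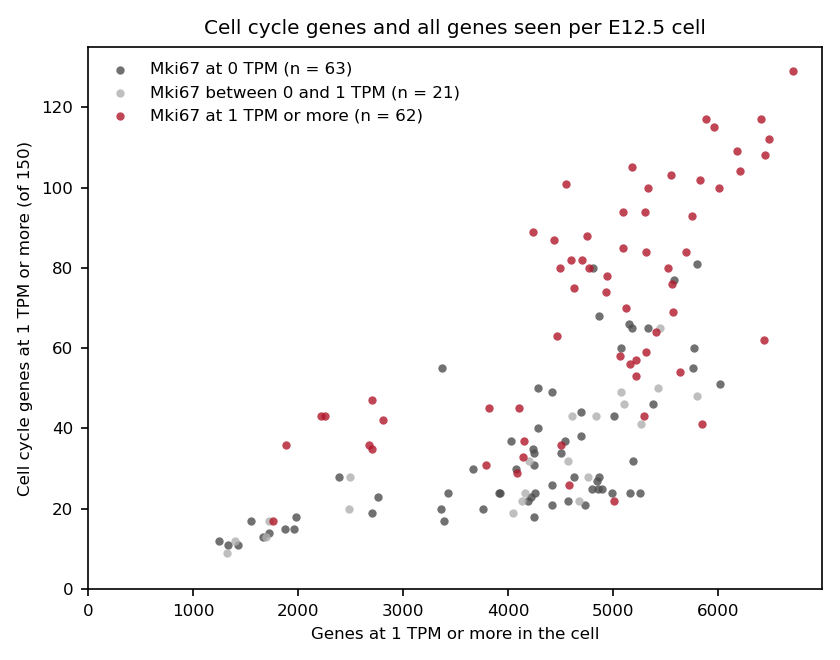
Each point is 1 E12.5 cell, with the number of genes at 1 TPM or more on the x axis and the number of the 150 cell cycle genes at that level on the y axis, coloured by Mki67 group. Cells with more genes also held more cell cycle genes, and at a like number of genes most positive cells lay above the zero cells, which themselves reached up to 81 cell cycle genes.

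Among the 5 cell cycle lists, chromosome and spindle genes had the highest median ratio. Of 55 measured genes of chromosomes, kinetochore and spindle 53 were higher and none lower (median 3.44). Tpx2, which brings the kinase Aurora A to the spindle, ranged from 0 to 1127 TPM with a median of 20.1 TPM in positive cells, and from 0 to 14.3 TPM with a median of 0 in zero cells. Its means of 118.9 and 0.758 TPM gave a log2 ratio of 6.09. It was seen in 40 of 62 positive cells and 5 of 63 zero cells, and the highest positive cells lay far above every zero cell.

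Top2a, the topoisomerase that untangles chromosomes and lies on chromosome 11 (GRCm38, 98992943 to 99024189), had a median of 117.9 TPM in positive cells (0 to 3691) and 0.41 TPM in zero cells (0 to 264.6). Its log2 ratio was 5.14. The zero group was not free of Top2a, with 23 of 63 cells at 1 TPM or more (36.5%). The exact Clopper-Pearson 95% interval of that share was 24.7 to 49.6, which covers counting error over cells only. Ndc80, a part of the kinetochore that grips microtubules, had means of 91.9 and 0.414 TPM (log2 ratio 6.04). Kif20a, a motor needed for cytokinesis, averaged 54.3 TPM against 0.0298 TPM (5.75), with none of the zero cells reaching 1 TPM. Casc5, the table's symbol for a kinetochore scaffold, averaged 55.7 against 0.564 TPM (5.18), and Prc1, which bundles microtubules between separating chromosomes, 120.1 against 3.86 TPM (4.64). These genes were seen in 46.8% to 79% of the positive cells, so a positive cell without them was common.

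Mitotic entry genes behaved alike, with 23 of 24 measured members higher, none lower and a median of 3.04. Pbk, a mitotic kinase, had medians of 6.84 and 0 TPM and means that gave a log2 ratio of 4.53. Aurka and Aurkb, the Aurora kinases of spindle poles and centromeres, had log2 ratios of 4.28 and 3.78. Cdk1, the kinase that starts mitosis, was chosen after its values were seen: it ranged from 0 to 4458 TPM with a median of 26.7 TPM in positive cells and from 0 to 1315 TPM with a median of 0 in zero cells. Its log2 ratio of 2.31 was smaller than those of the spindle genes, and 22 of 63 zero cells held it at 1 TPM or more. Ccnb1 and Ccnb2, the cyclins that activate it and also named after their values were seen, had log2 ratios of 2.81 and 1.68.

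Genes of mitotic exit were higher in 9 of 11 cases, with a median of 2.01. Ube2c, which hands ubiquitin to the complex that ends mitosis, averaged 170.2 TPM against 4.66 TPM (log2 ratio 4.92) and was seen in 40 of 62 positive and 17 of 63 zero cells. Anapc1, the largest subunit of that complex, had a ratio of 2.24.

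Genes of the earlier steps differed less. Of 24 measured genes of G1/S and replication licensing 18 were higher and none lower, with a median of 1.02 (0.81 within classes of genes per cell). Uhrf1, which keeps DNA methylation after copying, had medians of 30.6 TPM in positive and 0 TPM in zero cells and a log2 ratio of 1.71. Mcm4, a helicase subunit, had medians of 28.9 and 0 TPM and a ratio of 1.59.

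DNA synthesis genes were higher in 18 of 34 cases and lower in 1, with a median of 0.71. Within 3 classes of genes per cell the median was 0.47, and 7 genes were lower against 16 higher. Rrm2, the subunit that limits the making of deoxynucleotides, averaged 109.9 against 16.9 TPM (2.63). Pcna, the sliding clamp of DNA polymerase, is named after its values were seen because its mean did not differ: 173.4 TPM in positive and 172.3 TPM in zero cells, a log2 ratio of 0.01. Its medians were 45.8 and 21.9 TPM and its highest values 915 and 2287 TPM, so zero cells held the higher extremes while more positive cells held some (47 of 62 against 39 of 63). Tyms, the enzyme that makes thymidylate, was seen in 60 of 62 and 61 of 63 cells, so its presence did not separate the groups, although its mean was higher (272 against 95.9 TPM). Mcm4 was seen in 59.7% of positive cells (46.4 to 71.9) and in 33.3% of zero cells (22 to 46.3, exact Clopper-Pearson 95% intervals). These intervals cover counting error over cells only, take no account of the gap in genes per cell, and are no test between the groups.

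Within the positive group, cells with Mki67 at 100 TPM or more held more division genes than the rest. A median of 74.5% of the 55 chromosome and spindle genes was seen in the 23 high cells, 34.5% in the 39 lower positive cells, 16.4% in the 21 cells between and 12.7% in zero cells. For mitotic entry the medians were 64%, 32%, 12% and 12%. For licensing genes they were 28%, 28%, 16% and 16%, and for DNA synthesis 47.1%, 44.1%, 32.4% and 26.5%. High and lower positive cells thus had close medians for the copying genes and well separated ones for the division genes. Genes per cell had medians of 5097 and 5008 in those sets of positive cells, with lower quartiles of 4592 and 4123. Under 4000 genes were seen in 2 of the 23 high cells and in 8 of the 39 lower positive cells.

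**Figure D2:**
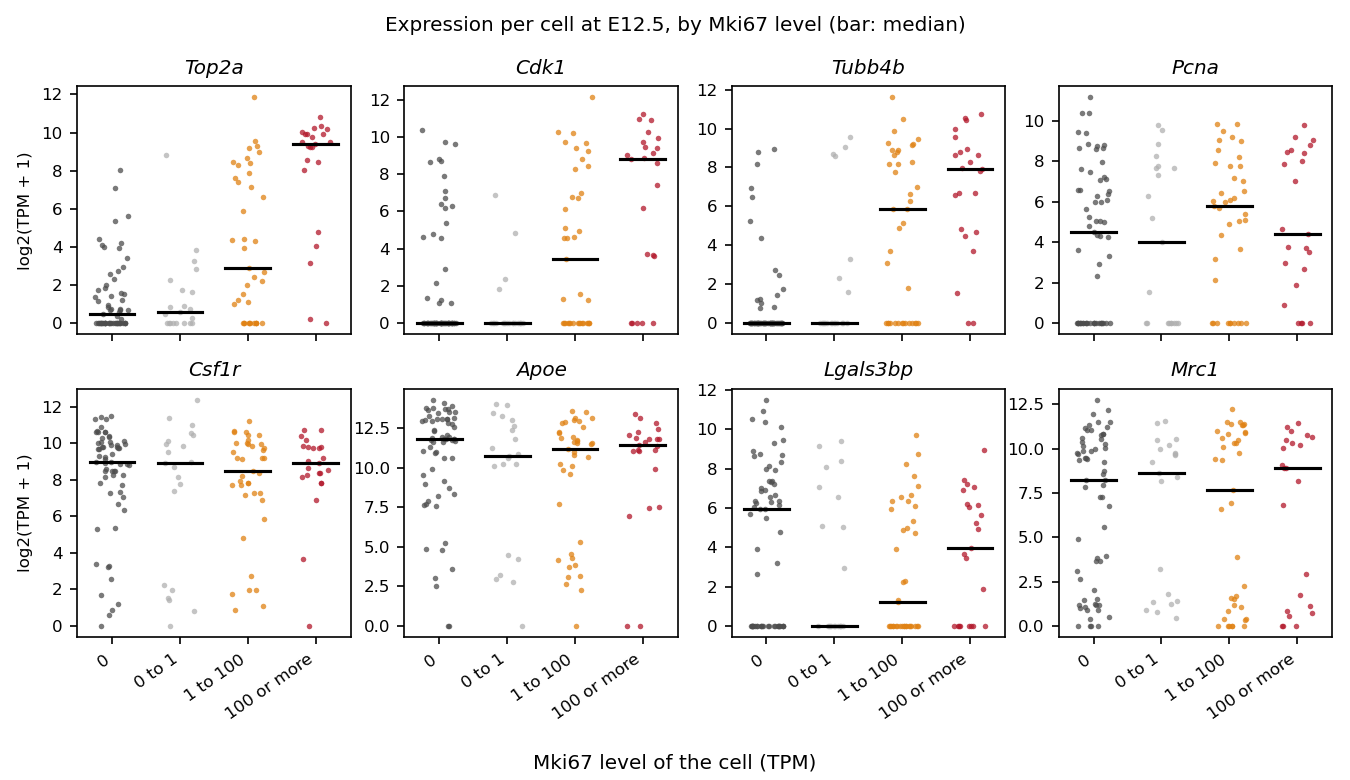
Each point is 1 E12.5 cell, grouped on the x axis by its Mki67 level in TPM, with log2(TPM + 1) of the named gene on the y axis and a bar at the median. Top2a, Cdk1 and Tubb4b had their highest medians in cells with 100 TPM of Mki67 or more, Pcna medians lay between 15.1 and 53.4 TPM with no order, and Lgals3bp had its highest median in cells without Mki67.

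Cells without Mki67 were not all free of other division genes. Top2a or Cdk1 stood at 1 TPM or more in 35 of 63 zero cells (55.6%, 42.5 to 68.1) and in 54 of 62 positive cells (87.1%, 76.1 to 94.3). Both stood there in 10 zero cells (15.9%, 7.88 to 27.3) and 36 positive cells (58.1%, 44.8 to 70.5). At 100 TPM or more for both, no zero cell was found (upper bound 5.69%), against 20 positive cells (32.3%, 20.9 to 45.3). The intervals and the bound are exact Clopper-Pearson at 95%, cover counting error over cells only, and take no account of the gap in genes per cell.

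Cyclins and inhibitors of the G1 phase were mixed. Of 11 measured G1 cyclins and their kinases 7 were higher and 1 lower (median 0.88). The median was 0.21 as a difference of mean log2(TPM + 1), 0.57 within classes of genes per cell and -0.00 for the positive cells with Mki67 at 100 TPM or more. At E16.5, 1 of 9 was higher and 2 were lower (median 0.12). Cdk4, the kinase of cyclin D, had medians of 578 TPM in positive and 16.1 TPM in zero cells and a log2 ratio of 1.39. Cdk6, its close relative, had a ratio of -0.42, within 1.5-fold. Of 17 genes that hold cells out of the cycle 5 were higher and 6 lower (median -0.20). Btg1 and Btg2, which slow division, had ratios of -0.27 and -0.46. Cdkn1a, the inhibitor p21, averaged 32.4 against 84.8 TPM (-1.36) with a median of 0 in both groups, and Cdkn1b, the inhibitor p27, had a ratio of 0.20; both were chosen after their values were seen.

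Packing and skeleton genes of dividing cells, which are outside the cell cycle lists, were higher as well. Of 35 measured genes for histones, chromatin proteins and tubulins 31 were higher and none lower (median 1.29). Hist1h2ap, a histone H2A gene, averaged 190.6 TPM against 0.981 TPM (log2 ratio 6.60) but was listed at 0 in over 50% of each group, with 26 of 62 and 3 of 63 cells at 1 TPM or more. Near-identical histone genes share reads, so single histone values are uncertain. Tubb4b, a beta-tubulin, had a median of 98.9 TPM in positive cells (0 to 3112) and 0 in zero cells (0 to 496), was seen in 46 of 62 and 14 of 63 cells, and had a ratio of 3.75.

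Some more abundant members differed in their medians. H2afz, a histone variant, had medians of 1908 and 556 TPM and a log2 ratio of 1.48. Stmn1, which takes microtubules apart, had medians of 843 and 104.3 TPM and the same ratio of 1.48. Hmgb2, a chromatin protein, had medians of 183.3 and 12.3 TPM (2.41). These genes and Tubb5, a main beta-tubulin (1217 and 451 TPM, 1.44), were chosen after their values were seen. For these picked genes the median cell differed between the groups, but single cells overlapped. A zero cell held 4197 TPM of H2afz and 2851 TPM of Stmn1.

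Some of the largest ratios rested on 1 or a few cells, so genes outside the cell cycle lists were ranked only where the higher group had a mean of 50 TPM or more, at least 25% of its cells with the gene and no cell with over 25% of its total. Of the 12 largest ratios upward within these limits, several belong to known division genes that the lists did not hold. Cdca2 and Cdca3 are named for cell division, Knstrn and Zwilch serve the kinetochore, and Dlgap5 stabilises spindle fibres. Their ratios ran from 3.46 for Dlgap5 to 5.48 for Cdca2. Shcbp1 had a ratio of 3.67. Rad52, a DNA repair protein, had a ratio of 4.34 and Nup160, a nuclear pore subunit, 3.99; each was seen in fewer than 50% of the positive cells.

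Genes that supply material for growth were modestly higher, less so among cells with like numbers of genes. Nucleotide and one-carbon synthesis had 14 of 25 genes higher and 3 lower (median 0.68), led by Dtymk, a thymidylate kinase (209.7 against 75.8 TPM, 1.46). Splicing genes had 12 of 22 higher and none lower (median 0.63), among them Ddx39 (1.36) and Srsf1 (1.17). Within 3 classes of genes per cell those medians were 0.21 and 0.35, where the median of all measured genes was 0.02. At E16.5 the nucleotide list had 8 of 23 genes higher and 5 lower, with a median of 0.10 beside 0.11 for all genes. Splicing genes there had 12 of 22 higher and 0 lower (0.60).

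As ratios of means, energy and protein turnover stood close to the rest of the genes. Oxidative phosphorylation had 2 of 33 genes higher and none lower, with a median of 0.21 beside 0.18 for all genes. Glycolysis had 3 of 15 higher and 1 lower (0.40), with Tpi1 and Pgk1 at ratios of 0.89 and 0.64. Proteasome and folding genes had 6 of 26 higher and none lower (0.34), and ribosome biogenesis and translation factors 5 of 25 higher and 1 lower (0.33). Within classes of genes per cell these 4 medians were -0.01, -0.02, 0.06 and 0.08. As differences of mean log2(TPM + 1) they were 0.91, 0.39, 1.16 and 0.84, beside 0.25 for all measured genes. On that scale, which also rises with the number of cells in which a gene is seen, all but glycolysis stood well above the rest. Cct8, a subunit of the chaperonin that folds actin and tubulin, stood out among the folding genes with medians of 351 and 39.5 TPM and a ratio of 0.96.

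The DNA damage and p53 list had 9 of 19 genes higher and 3 lower (median 0.51). Trp53, the gene of p53, had medians of 27.5 and 3.61 TPM and a ratio of 0.84. Mdm2, which degrades p53, had a ratio of 1.61, and Xrcc6, which binds broken ends, 1.60. The cytoskeleton list had 4 of 25 higher and none lower (0.30), with Coro1a, an actin regulator of blood cells, at medians of 614 and 302 TPM (0.67). Within classes of genes per cell the medians of these 2 lists were 0.24 and 0.14.

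Lists of mature macrophage functions leaned lower in Mki67-positive cells. Lysosome and phagocytosis genes had none of 26 higher and 8 lower (median -0.37), border-associated macrophage genes none of 12 higher and 5 lower (-0.52), and disease-associated microglia genes 2 of 24 higher and 8 lower (-0.34). MHC class I genes had 1 of 11 higher and 5 lower (-0.33), and transcription factors of macrophages 1 of 18 higher and 7 lower (-0.53). The share of all measured genes that were lower was 22.6%, and the shares of these lists run from 30.8% to 45.5%. Within classes of genes per cell the 5 medians were -0.45, -0.54, -0.43, -0.39 and -0.53. Without cells that held other myeloid markers they were -0.40, -0.43, -0.64, -0.38 and -0.20. As differences of mean log2(TPM + 1) they were -0.23, -0.44, -0.39, -0.17 and -0.07, beside 0.25 for all measured genes, so the macrophage transcription factors were close to 0 on that scale.

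Cd68, a lysosomal membrane protein used to mark macrophages, was lower across the range of cells. It had a median of 493 TPM in positive cells (0 to 2659) and 944 TPM in zero cells (0 to 3637), with a log2 ratio of -0.80. Ctsh and Ctss, lysosomal proteases, had ratios of -0.77 and -0.63 with medians of 72.2 against 96 TPM and 1236 against 1579.7 TPM. Gas6, which tags dying cells for uptake, had a ratio of -0.79. The groups overlapped for each of these genes over almost their whole range.

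Among border-associated genes, Ms4a7 had medians of 2.92 TPM in positive and 67.1 TPM in zero cells, with 39 of 62 and 46 of 63 cells at 1 TPM or more and a log2 ratio of -1.11. Stab1, a scavenger receptor, had medians of 329 and 883 TPM (-0.57). F13a1 had medians of 123.2 and 218.3 TPM (-0.47), and 100 TPM of it was reached by 32 of 62 and 36 of 63 cells. Mrc1, the mannose receptor CD206, had equal means (898 and 893 TPM, 0.01), and Pf4 a ratio of -0.32; both were chosen after their values were seen. The border-associated list therefore did not move as one.

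Igf1, a growth factor that microglia release, had medians of 8.54 TPM in positive and 63.1 TPM in zero cells and a ratio of -0.90. Timp2, an inhibitor of matrix proteases, had a ratio of -1.55, and Clec7a, a receptor for fungal glucans, -1.10 with 14 of 62 and 18 of 63 cells, which turned to 0.51 among cells with F13a1 at 100 TPM or more. Apoe, the lipid carrier, had medians of 2721 and 3611 TPM (-0.67), and Abcg1, which exports cholesterol, averaged 120.3 against 333 TPM (-1.46) with medians of 5.33 and 6.28 TPM. Apoe differed in the typical cell, and Abcg1 mainly in the highest cells. The whole list of cholesterol and lipid handling was mixed, with 10 of 23 higher and 5 lower (0.02).

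Homeostatic microglia genes stayed near 0, with 2 of 16 higher, 1 lower and a median of 0.02. Cx3cr1, the fractalkine receptor, had medians of 494 and 419 TPM (0.22). P2ry12, the receptor for nucleotides, had medians of 30.8 and 80.1 TPM (-0.14). Tmem119 was 1 of the higher genes (84.3 against 17.8 TPM, 2.18), with 37.9% of the positive group's total in 1 cell and a median of 0 in both groups. Sall1, a factor of microglial identity, was seen in 7 of 62 and 6 of 63 cells. P2ry12, Tmem119 and Sall1 were chosen after their values were seen.

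Maf, a transcription factor of resident macrophages that was chosen after its values were seen, had medians of 369 and 475 TPM and a log2 ratio of -0.40. Mef2a and Mef2c, factors of macrophage enhancers, had ratios of -0.76 and -0.61, and Id2 had a ratio of 0.78. Id2 turned to -0.15 without the cells with other myeloid markers and to -0.43 among cells with F13a1 below 100 TPM.

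MHC class II genes were hardly present, with 4 of 7 measured, and H2-Ab1, named after its values were seen, was found in 2 zero cells and no positive cell. The immediate early list had none of 15 genes past 1.5-fold in either direction (median -0.27). Interferon genes had 4 of 19 higher and 6 lower (-0.31), inflammatory genes 5 of 16 higher and 3 lower (0.34), complement genes 3 of 10 higher and 1 lower (-0.19), and TGF-beta genes none of 11 higher and 3 lower (-0.32). In growth factor signalling 6 of 18 were higher and 1 lower (0.07). Mapk3, a kinase of the pathway below such receptors, had a ratio of -1.35, but 0.30 among cells with F13a1 below 100 TPM.

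The 12 largest ratios downward outside the cell cycle lists, among genes within the limits given above, belonged to no 1 list. Lrrk1 led them (10.8 against 74.4 TPM, -2.68), followed by Il2rg, a shared chain of cytokine receptors (-2.44), Il18, a cytokine (-2.28), and Phf11d (-2.23). In all 4 the median was 0 in both groups. Lgals3bp, a secreted partner of galectin-3, was the only one of the 12 with a median above 1 TPM in zero cells: 60.4 TPM (0 to 2874) against 3.73 TPM (0 to 835), with a ratio of -1.86 and 38 of 63 against 35 of 62 cells at 1 TPM or more.

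**Figure D3:**
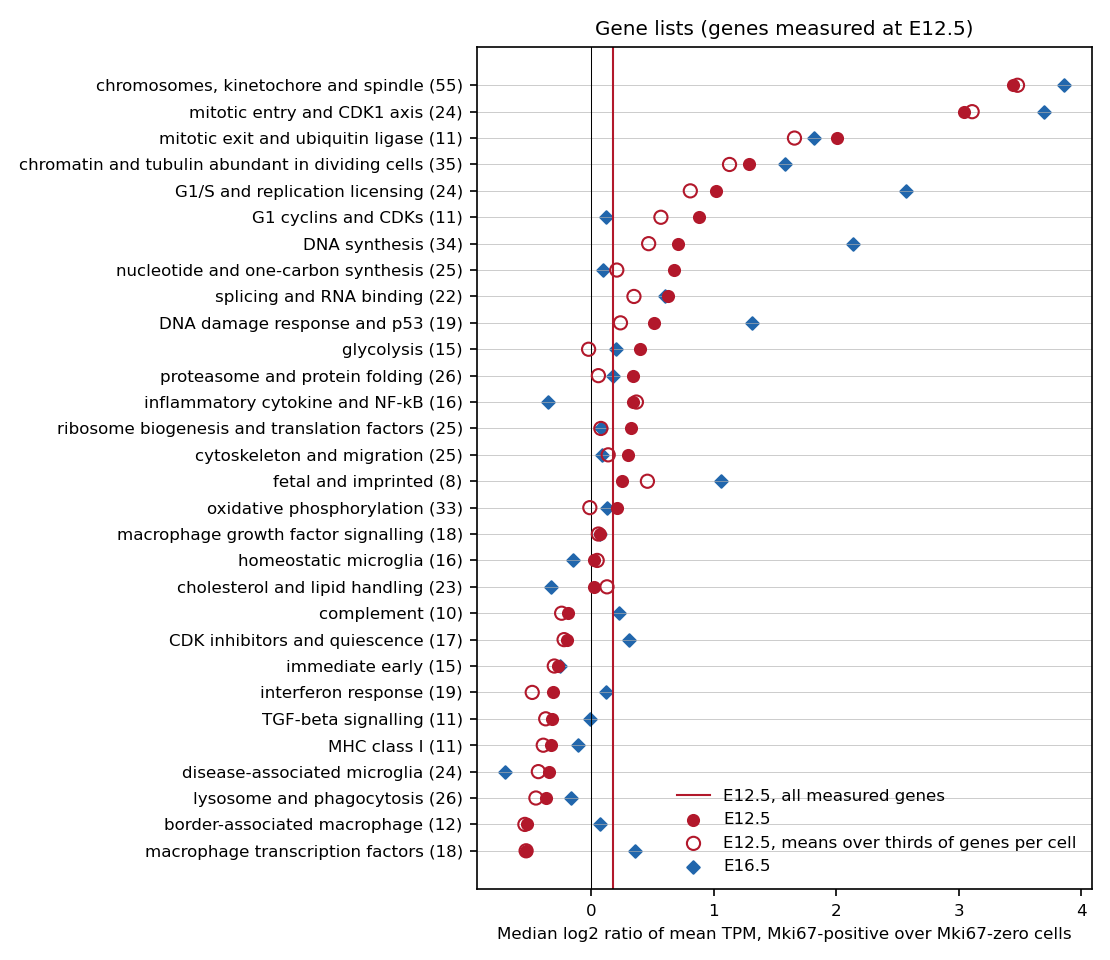
Each row is a gene list with the number of its genes measured at E12.5, and the x axis is the median log2 ratio of mean TPM in Mki67-positive over Mki67-zero cells. Filled circles are E12.5, open circles are E12.5 within classes of genes per cell, diamonds are E16.5 and the vertical red line is the E12.5 median of all measured genes (0.18); division lists lay far to the right in all 3, while the macrophage transcription factors were at -0.53 at E12.5 and 0.36 at E16.5.

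The E16.5 cells gave a second sample for the same split. There 11575 genes were measured, 36.1% higher and 29.9% lower in positive cells, and the median of all was 0.11. The cell cycle lists had 93.2% of their measured genes higher and 2 lower, with a median of 3.03. Genes of DNA copying differed more than at E12.5: the licensing list had a median of 2.57 and the synthesis list 2.14, beside 1.02 and 0.71. Pcna averaged 586 TPM in positive and 168.2 TPM in zero cells at E16.5, a ratio of 1.80. The difference between the ages was not tested, and each age is 1 sample.

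The direction of E12.5 ratios returned at E16.5 more often for cell cycle genes than for the others. Of the cell cycle genes measured at both ages 91.8% had the same sign. Of 9151 other genes 53.6% did, with 58.1% of those higher at E12.5 and 50.6% of those lower. Among genes outside the cell cycle lists that met the level and cell limits for naming and passed 1.5-fold at E12.5, 40.2% of 579 higher genes were also higher at E16.5 and under 20% were lower there. Of the lower genes 25.4% (50 genes) were also lower at E16.5 and 16.8% (33 genes) were higher. The shares of 36.1% higher and 29.9% lower at E16.5 are over all genes measured there, not over genes that met those limits, so the 2 kinds of share cannot be set against each other directly.

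**Figure D4:**
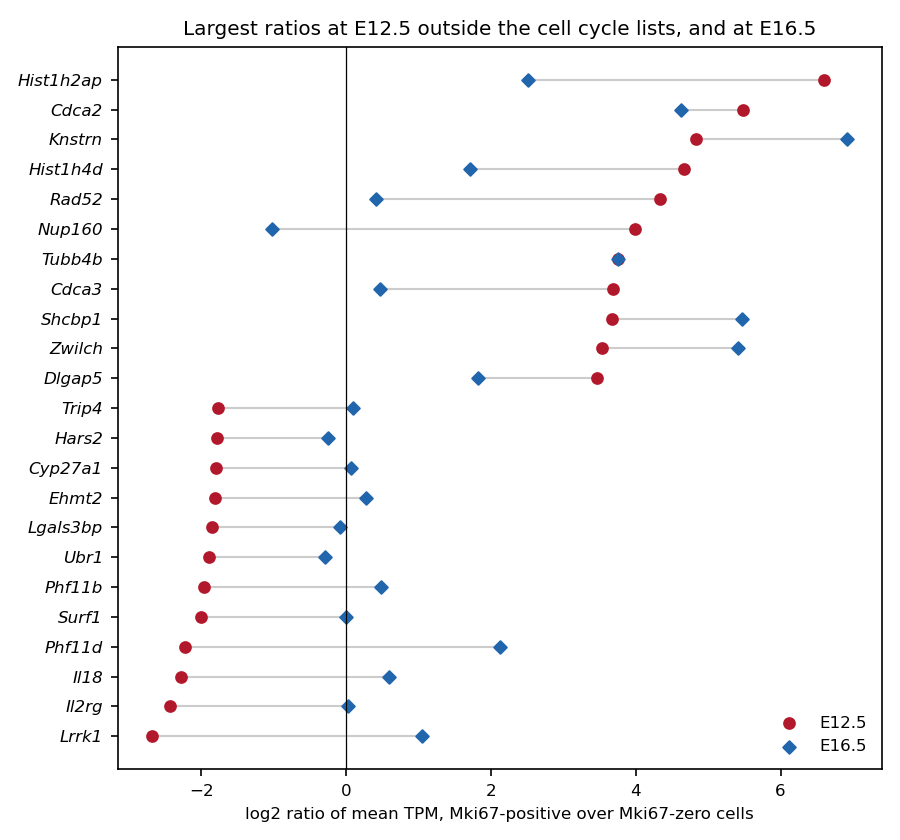
For 23 of the genes with the largest ratios outside the cell cycle lists at E12.5, the circle is the log2 ratio of mean TPM at E12.5 and the diamond the ratio at E16.5. Of the 11 higher genes shown all but Nup160 stayed above 0, and of the 12 lower genes the diamonds lay between -0.30 and 2.13.

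Among the list medians that leaned lower at E12.5, disease-associated microglia genes were at -0.70 at E16.5, with 14 of 25 lower and none higher. Lysosome genes were at -0.16, MHC class I at -0.11, border-associated genes at 0.07 and macrophage transcription factors at 0.36. Immune genes with the largest E12.5 ratios did not keep them: Il2rg was at 0.02, Il18 at 0.59, Lgals3bp at -0.08 and Lrrk1 at 1.04. Cd68 was at 0.21 and Apoe at 0.55.

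A small set of other genes met the naming limits in the same direction at both ages, 68 higher and 19 lower. The share of all genes that would meet the limits at both ages was not computed. Whether these counts exceed such a background is therefore not known. This choice used the E16.5 values, and the genes below were picked from the set after their values were seen. Among the higher ones were Tubb4b (3.75 and 3.76 at E12.5 and E16.5), Asf1b, a histone chaperone (2.72 and 3.99), Rad21, a part of cohesin (2.37 and 2.98), H2afv, a histone variant (2.35 and 2.15), and Gmnn, which blocks a further round of replication (1.73 and 1.89). These named genes serve chromosomes or the spindle, but they were picked and do not describe the whole set. It also held genes such as Tpm4 (1.72 and 1.36) and Tbk1 (1.63 and 1.18). Whether a shared role marks the set was not tested.

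Among the lower ones were Sepp1, the plasma carrier of selenium, with means of 2178 against 4369.7 TPM at E12.5 and 2108 against 3915 TPM at E16.5, a log2 ratio of -0.89 at the latter. At E12.5 its medians were 1422 and 2943 TPM, and it was seen in 62 of 62 and 61 of 63 cells. Fgd2, an exchange factor for the small GTPase Cdc42, had ratios of -1.40 and -1.07 and E12.5 medians of 5.62 and 30.9 TPM. Cd84, an adhesion receptor of leukocytes, had ratios of -1.02 and -1.18. Igf1 had ratios of -0.90 and -1.65, Ctsl, a lysosomal protease, -0.64 and -0.88, and Pld3, a lysosomal nuclease, -0.88 and -1.82. At E12.5, Sepp1, Fgd2 and Igf1 had ratios of -1.11, -1.24 and -0.71 without the cells with other myeloid markers.

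Genes of other blood cells were found in both groups, some in few cells and some in most. Of 8 measured progenitor genes 7 were higher, none was lower and their median was 1.46, but Mpo, a granule enzyme and the most abundant of them, was seen in 5 of 62 and 6 of 63 cells with 91.5% of the positive total in 1 cell. Of 11 monocyte genes 5 were higher and 2 lower; Plac8 was seen in 20 of 62 and 10 of 63 cells (208.8 against 71.4 TPM, 1.54) and Ccr2 in 38 of 62 and 31 of 63. Cd34, a surface protein of progenitors, was seen in 90.3% of positive and 92.1% of zero cells and had a ratio of 0.02. Within 3 classes of genes per cell the progenitor list had 3 of 7 genes higher and a median of 0.46. S100a8, a neutrophil protein, was seen in 17 cells of each group. The summed TPM of 11 neutrophil markers reached 100 in 9 of 62 positive and 6 of 63 zero cells. The highest sums were 269153 and 353201 TPM, so a few cells gave much of their total to these genes. Among the 23 cells with Mki67 at 100 TPM or more, 4 reached that sum. Pax6, a factor of neural progenitors, averaged 6293 TPM in zero cells, where 1 cell held 182225 TPM. That cell alone does not account for the mean, so other zero cells also held high values.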

How the data were processed

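The authors deposited 1 table of TPM for 43280 gene names, in which each of the 272 cells used here summed to 997910 to 1000000. Per the submitters' processing notes, RSEM 1.2.19, Seurat and the GRCm38 genome were used; for the aligner, annotation and cell filters, nothing is given in the sources used here. The libraries carry no molecular identifiers, strand use is not given, and no doublet caller was run because such callers need counts. Of the table's columns 1345 were not used, and no columns used were identical. Only exact identity was checked, and some cells were much alike. A zero cell and a cell between held Apoe at 11206.63 and 11170.63 TPM, Lyz2 at 6680.93 and 6914.42, and Cdkn1a at 1178.98 and 1242.73. A pair of positive cells held Cdk1 at 11.4 and 11.9 TPM and Tyms at 2504.71 and 3369.11. Whether either pair came from 1 cell was not tested. Reads per cell are unknown.

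Cells were grouped by age from the labels and then by Mki67. Each gene's 2 group means were raised by a pseudocount of 1 TPM, divided and put on the log2 scale, so ratios of low genes are understated; a gene was measured if 1 of the means reached 5 TPM. No test was made. The ratio was tested on simulated data with known folds. A gene was seen in a cell from 1 TPM. Named genes reached a mean of 50 TPM in the group where they were higher, were seen in at least 25% of its cells, had no cell with over 25% of its total, and had the same sign in mean log2(TPM + 1); mitochondrial, ribosomal, predicted, pseudogene, Y-linked genes and Xist were left out. The 8 largest upward ratios of cell cycle genes, 12 in each direction outside them and up to 4 per list were taken, with the most abundant gene of each marker list. A few genes within these limits were left out of the text. The members and the 47 lists were chosen with earlier results of these data known. The effect of 16 other settings was computed, and 2 more (cells without other myeloid markers, and cells with 4000 genes or more) were chosen after seeing the data. Promoters came from RefSeq (GRCm38.p6) and gene coordinates from GENCODE. Computation used numpy 2.4.6, scipy 1.17.1, pandas 2.3.3 and matplotlib 3.10.9 under Python 3.11.15.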

Additional observations from a re-analysis of the deposited data

How the results depend on the processing

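The median of the cell cycle lists (2.07) stayed between 1.39 and 3.63 under the 18 alternatives. It was 1.39 with a pseudocount of 10 TPM, 1.43 as a difference of mean log2, 3.63 against zero cells without Top2a or Cdk1 (a choice of cells that by itself raises this median, and where all genes had a median of 0.54), and 3.04 in cells with F13a1 below 100 TPM. Genes 1.5-fold higher and lower (3790 and 2474) numbered 5702 and 4004 with no filter on the mean and 2035 and 1186 with a mean of 20 TPM or more, where other numbers of genes were measured. The lower count was 291 as a difference of mean log2 and 1494 without the highest cell of each gene. Rescaling the groups by their median ratio moved the median of all genes from 0.18 to 0.05. No paired analysis was possible because the labels give no replicate numbers, and with 1 sample per group no replicate could be left out.

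Over the alternatives, 500 of 3325 values of named genes were classed as moved away from the main value, apart from those that changed sign. Of 707 values of list medians, 633 stayed the same. As a difference of mean log2, about as many named genes moved as stayed the same. Moves were next most frequent in cells with F13a1 below 100 TPM, then against zero cells without Top2a or Cdk1. Among the named genes and the 40 list medians, 18 and 4 values of those past 1.5-fold changed sign. As a difference of mean log2, Hbb-y was at -0.04 and Ccnd1 at -0.58. With Mki67 at 100 TPM or more, the G1 cyclin median and Ccnd1 were at -0.00, the mast cell median at -3.65 and Cpa3 at -6.89. Against zero cells without Top2a or Cdk1, Oasl2 was at 0.10. In cells with F13a1 at 100 TPM or more, the MHC class II median was at 0.18, Shmt2 at -0.07, Clec7a at 0.51, Irf1 at 0.65, Siglech at 0.33 and Pax6 at 1.30. In cells with less, Mapk3 was at 0.30, Id2 at -0.43, Itgav at 0.99, S100a8 at -0.61 and Hbb-y at -3.30. Without cells with other myeloid markers, the MHC class II median was at 0.11, Csf2rb at -0.24, Id2 at -0.15 and Mcm5 at -0.32. The cause was not tested. TPM hides depth, so a value of 0 in a cell with few genes cannot be told from a gene that was missed.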

Other observations

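The 21 cells with Mki67 between 0 and 1 TPM, which entered neither group, lay near the zero cells in division genes. They held a median of 28 cell cycle genes (9 to 65), with 4565 genes per cell. Hmgb2 was seen in 12 of 21 of them, H2afz had a median of 377 TPM and Tubb4b a median of 0. Top2a and Cdk1 both stood at 1 TPM or more in 1 of the 21.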
